A study of Mus musculus with 32 samples.

Results

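Ago2 regions over microRNA hairpins were the regions of a deposited list of Ago2 crosslinking sites that shared at least 1 base, on either strand, with a microRNA gene of the RefSeq annotation of mouse build mm10. They numbered 210 of the 22400 distinct regions of the list, or 0.938%, and lay on 168 of 1228 annotated hairpins. The cells were a hybrid mouse embryonic stem cell (ESC) line, taken at day 0, and neurons induced from it (iNs), taken at day 10 after doxycycline had switched on the neurogenic factor Neurog2 from a TetO-Ngn2 transgene. Control cells were Mirg(fl/+). Deletion cells were Mirg(Delta/+), which lack the imprinted cluster between Mir379 and Mir410 on the chromosome inherited from the mother. Ago2 was crosslinked to RNA by ultraviolet light in control iNs that expressed either untagged Ago2 or HA-tagged Ago2, and was precipitated with anti-HA beads. There were 2 replicates of each input and each immunoprecipitate (IP), sequenced with 40 base reads after 9 PCR cycles for the inputs and 18 for the IPs. No file of a single crosslinking library was used here, so the fold values below have no replicate error and the depth of those libraries is unknown. Small RNA was sequenced in 3 libraries each of control and deletion ESCs and iNs. The labels do not say whether the libraries of a group came from separate cultures, so p-values measure only the spread between them.

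MicroRNAs are cut from hairpin precursors, and 1 strand of the resulting duplex, from the 5′ or the 3′ arm, is loaded into an Argonaute protein such as Ago2. The loaded strand guides Argonaute to messenger RNAs by pairing of its seed, bases 2 to 8 counted from its 5′ end. Because crosslinking ties Ago2 to both guide and target, a library of its RNA holds reads from microRNAs as well as from the transcripts they pair with.

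A choice of 6 hairpins, made after their values were seen and not by rank alone, is shown to let a reader see where the regions lie on the precursor. Capitals mark the bases of the hairpin inside the Ago2 region, read 5′ to 3′. Mir96 (chr6:30169519-30169528, minus strand), Mir182 (chr6:30165962-30165986, minus) and Mir183 (chr6:30169722-30169732, minus) form a cluster known from sensory organs. Mir302b (chr3:127545275-127545286, plus) belongs to a cluster of pluripotent cells, and Mir127 (chr12:109592888-109592899, plus) lies antisense to the imprinted gene Rtl1. In Mir675 (chr7:142577138-142577153, minus), which is made from the imprinted H19 transcript, the region covered the first bases of the hairpin and no listed mature microRNA. Sequences are those of RefSeq, build GRCm38.p6, whose table held a hairpin sequence for 149 of the 168 hairpins.
Mir96: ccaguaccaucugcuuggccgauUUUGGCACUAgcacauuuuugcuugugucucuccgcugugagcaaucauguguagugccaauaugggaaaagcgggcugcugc
Mir182: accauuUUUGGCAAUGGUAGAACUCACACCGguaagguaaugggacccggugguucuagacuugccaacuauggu
Mir183: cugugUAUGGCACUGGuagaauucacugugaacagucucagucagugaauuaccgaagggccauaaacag
Mir302b: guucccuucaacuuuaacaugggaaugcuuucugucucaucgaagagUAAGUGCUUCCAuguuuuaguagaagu
Mir127: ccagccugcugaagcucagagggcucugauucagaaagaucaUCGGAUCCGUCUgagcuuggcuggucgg
Mir675: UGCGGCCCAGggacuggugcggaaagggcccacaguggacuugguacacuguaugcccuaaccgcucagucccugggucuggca

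A mature microRNA with a region on its own arm and a listed sequence was found with 101 different seeds. Of these seeds, 13 were shared by more than 1 microRNA and took in 36 microRNAs. The 5 microRNAs with the seed AAGUGCU had the highest folds of any shared seed, and 4 microRNAs of the miR-17 to 92 clusters and their paralogs shared AAAGUGC. Another 6, miR-92a-3p and miR-367-3p among them, shared AUUGCAC. Folds ranged from 5.52 to 7.61, from 3.16 to 4.95 and from 1.69 to 5.24 in the 3 seed groups. They are printed with the seed in capitals because most regions covered these bases.
miR-302b-3p: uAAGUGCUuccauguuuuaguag
miR-302d-3p: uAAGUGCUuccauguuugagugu
miR-291a-3p: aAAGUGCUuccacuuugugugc
miR-294-3p: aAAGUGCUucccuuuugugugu
miR-295-3p: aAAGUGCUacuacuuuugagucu
miR-17-5p: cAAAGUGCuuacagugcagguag
miR-20a-5p: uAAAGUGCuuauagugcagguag
miR-106a-5p: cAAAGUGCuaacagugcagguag
miR-106b-5p: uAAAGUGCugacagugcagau
miR-25-3p: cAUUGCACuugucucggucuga
miR-92a-3p: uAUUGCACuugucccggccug
miR-367-3p: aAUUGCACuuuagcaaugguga

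The authors gave each region 2 pairs of values, a log2 fold and a −log10 p of the HA-Ago2 IP over the untagged IP, and the same over the input. All CLIP folds and p-values below are the authors' deposited values. Regions over hairpins stood far above the rest of the list in both comparisons. Their median log2 fold over the untagged IP was 2.80, against −0.13 over all 22400 regions, and their median over the input was 4.40, against 2.22. The fold over the untagged IP was above 0 in 180 of the 210 (85.7%), against 42.9% of all regions. With a log2 fold of at least 3 and a −log10 p of at least 3 taken as called, 82 of 210 were called over the untagged IP, against 3.67% of all regions. Over the input 146 of 210 were called, against 19.4% of all regions. All 82 were among the 146. The list was shared by both comparisons, so that every hairpin region had both values. Of the 100 regions with the highest fold over the untagged IP in the whole list, 24 lay on a hairpin, and of the 100 highest over the input, 32 did.

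**Figure D1:**
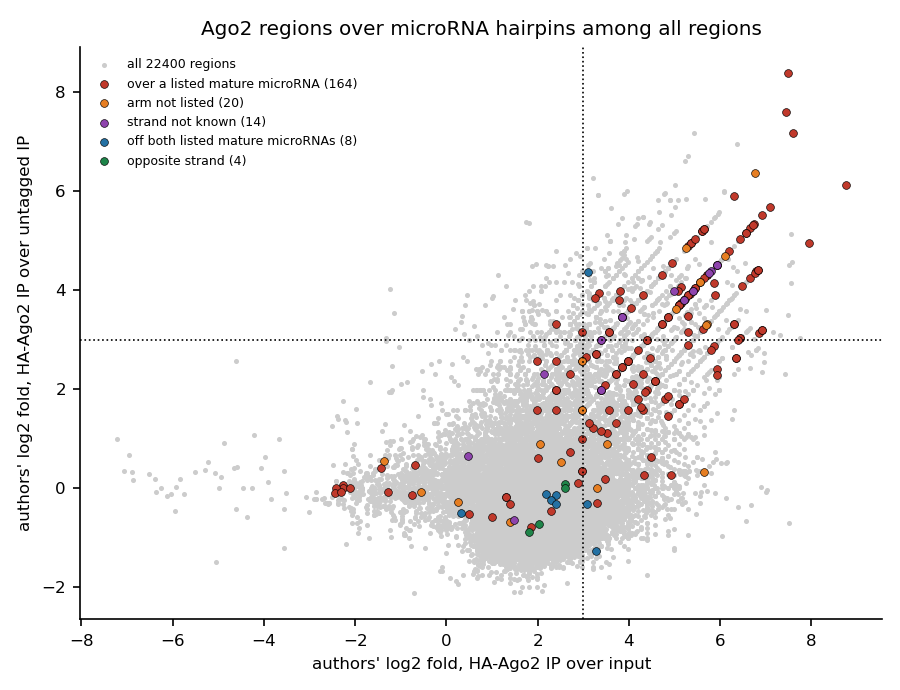
Authors' log2 fold of the HA-Ago2 IP over the untagged IP (vertical) and over the input (horizontal) for all 22400 regions (grey) and the 210 hairpin regions, coloured by their position on the hairpin. Dotted lines mark a log2 fold of 3. Red points over listed mature microRNAs fill the upper right, and blue and green points lie at 0.09 or lower on the vertical axis except for Mir675.

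Folds over the untagged IP and over the input followed each other more closely among hairpin regions (Spearman 0.80, 210 regions) than among all regions (0.33, 22400 regions). Both folds share the HA-Ago2 IP, so this is a description only. The deposited folds moved in steps. The value 1.58 was given to 7 hairpin regions and 2.58 to another 7. The regions at 1.58 had −log10 p from 0.20 to 1.34, and those at 2.58 all had 0.90. Some hairpins at different places, such as Mir330 and Mir92-2, carried the same fold (5.24) and the same −log10 p (9.83). Read counts behind the folds were not used here, so how many reads a step stands for is unknown. How far few reads in the untagged IP raised a fold was not tested.

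The regions were short, with a median width of 23 bases against 32 over the whole list, and a range from 1 to 121 bases. Of 210, 164 lay over a listed mature microRNA on its own strand. A further 20 lay on the strand of a hairpin with 1 or no listed mature microRNA, and not over a listed one. Another 14 lay on a hairpin whose strand was not listed, 8 off both listed mature microRNAs and 4 on the opposite strand only. The median log2 fold over the untagged IP was 2.95 over a mature microRNA. It was 2.08 for the 20 on hairpins with 1 or none listed and 3.63 where the strand was not listed. It was −0.28 off both listed mature microRNAs and −0.37 on the opposite strand. Over a mature microRNA 65 of 164 regions (39.6%) were called, and of all 46 other regions 17 (37.0%) were. None of the 4 opposite-strand regions and 1 of the 8 off both mature microRNAs, that of Mir675, was called. Over the input the medians over a mature microRNA and on the opposite strand were 4.57 and 2.31, the second close to that of all regions.

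Most regions over a mature microRNA began where the microRNA begins. The 5′ end of the region was the same base as the 5′ end of the mature microRNA in 89 of 164 and within 1 base of it in 120 (73.2%). The 3′ ends were looser, with 68 of 164 within 3 bases of the mature 3′ end, 59 ending more than 5 bases short of it and 29 running more than 5 bases past it. In 131 of 164 (79.9%) the region covered all of the seed. The 120 regions that began within 1 base had a median log2 fold of 3.26 over the untagged IP and 60 of them were called. The other 44 had a median of 1.23 and 5 were called. The plot of region extents shows the common start. The hairpins printed above give the same picture, since in Mir96, Mir182, Mir183, Mir302b and Mir127 the first capital is the first base of the mature microRNA.

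**Figure D2:**
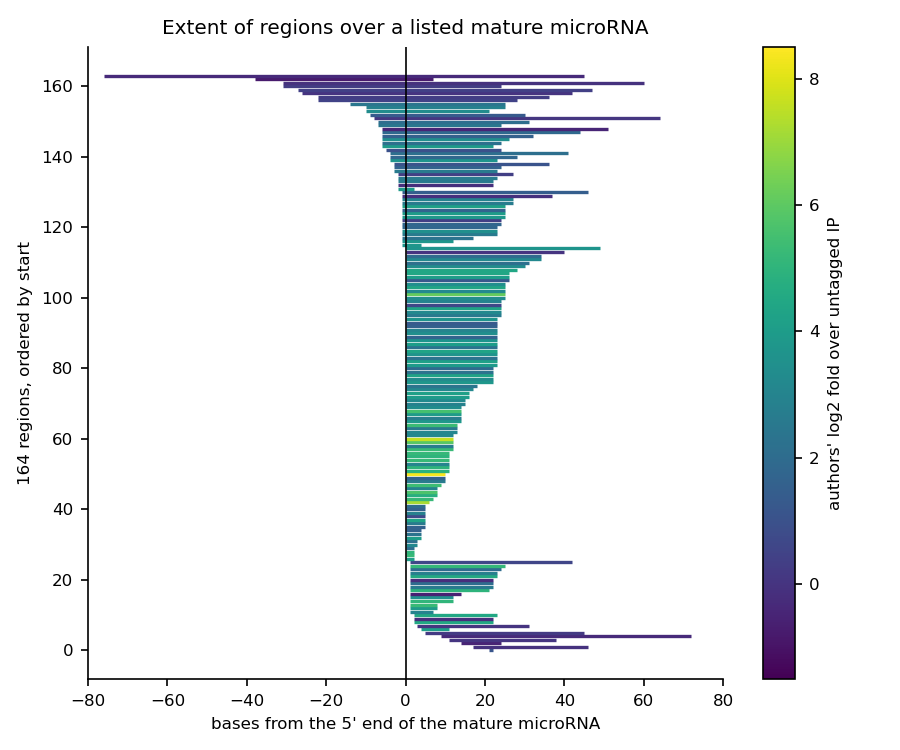
Each horizontal bar is 1 of the 164 regions over a listed mature microRNA, placed by its distance in bases from the 5′ end of that microRNA (0, vertical line) and coloured by the authors' log2 fold over the untagged IP. 120 of the bars start within 1 base of the line, and the widest bars and those that start farthest from the line are mostly dark, with low folds.

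Some regions overlapped each other. The 210 regions made up 174 separate stretches, 35 of which held more than 1 region, and in 19 of the 35 all regions carried the same fold. Counted once per stretch, at the highest fold, 61 of 174 were called over the untagged IP and the median log2 fold was 2.58. Of 168 hairpins, 46 had more than 1 region, and 4 (Mir17, Mir20a, Mir324 and Mir434) had regions over both arms. On Mir20a, of the miR-17 to 92 cluster, the regions over miR-20a-5p had folds up to 4.55 and that over miR-20a-3p 2.64. On Mir434, next to Mir127 in the imprinted domain, the fold was 5.04 over miR-434-5p and 2.99 over miR-434-3p. Mir18 had 3 overlapping regions at the start of miR-18a-5p with folds from 3.82 to 4.06. The widest region, 121 bases on Mir6935 inside the span of Actg1, the gene of a cytoplasmic actin, had a fold of −0.31.

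The sensory cluster held the region with the highest fold of the whole list. Mir96 had a log2 fold of 8.39 over the untagged IP with a −log10 p of 99.0, and 7.48 over the input. Mir182 had 6.12 over the untagged IP, at the ceiling of 400 of the deposited −log10 p, and 8.75 over the input, the highest of the list. Mir183 had 4.96 over the untagged IP and 7.95 over the input. Of their mature microRNAs, miR-182-5p and miR-183-5p were the most abundant in the small RNA libraries of control iNs, while miR-96-5p stood lower. In counts per 1000000 mature microRNA counts (CPM), miR-182-5p stood at 208335, 200377 and 201230 in the 3 control iN libraries and at 37448, 43444 and 42914 in the 3 control ESC libraries. For miR-183-5p the CPM was 92276, 84547 and 88772 in iNs and 13913, 12999 and 12876 in ESCs. For miR-96-5p the values were 13885, 16280 and 15100 in iNs and 11951, 7642 and 6456 in ESCs. The groups did not overlap for any of the 3. Although miR-96-5p was the least abundant of the 3 in iNs, its region had the highest fold over the untagged IP. Over the input it had the lowest of the 3. The read counts of the untagged IP were not examined, so the part of a low count there in this order was not tested.

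The stem cell list, the miR-290 to miR-295 and miR-302 to miR-367 hairpins that mark pluripotent cells, had the next highest folds. Of its 14 hairpins 10 had a region, with a median log2 fold of 5.60 over the untagged IP and values from 2.58 to 7.61, and 8 of 10 regions were called. Besides Mir302b (7.61) these were led by Mir291a (7.18), Mir302a (6.37) and Mir294 (5.90), and the −log10 p of Mir302b was 56.9. The mature microRNAs were scarce in the same kind of cell. miR-302b-3p stood at 285, 281 and 195 CPM in control iNs and at 33792, 23216 and 20133 CPM in control ESCs. miR-291a-3p stood at 0.137, 2.70 and 0 CPM in control iNs and at 609.6, 262 and 209 in control ESCs. The other arm of its hairpin, miR-291a-5p, had a mean of 150 CPM in control iNs. All microRNAs of the list together held between 0.179 and 0.242% of mature counts in the control iN libraries, and between 8.64 and 12.4% in the control ESC libraries. The small RNA and crosslinking libraries were separate preparations, and whether the cells of both held the same share of undifferentiated cells was not tested. In the RNA libraries of control iNs the 7 stem cell markers, Pou5f1 and Nanog among them, summed to 8.84 to 9.38 CPM, against 1765 to 1805 in control ESCs.

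The miR-17 to 92 clusters and their paralogs, microRNAs of dividing cells, were the next group, with a region on 12 of 16 hairpins. Their 21 regions had a median log2 fold of 3.90 over the untagged IP, from 1.64 to 5.24, and 15 were called. Mir92-2 (5.24), Mir106b (4.95), Mir20a (4.55) and Mir363 (4.52) led. Mir363 on the X chromosome and Mir367 on chromosome 3, whose microRNAs share the seed AUUGCAC, had the same fold of 4.52. Mir30b on chromosome 15, which is not of this seed group, carried that fold and the same −log10 p (5.52) too. As a group these microRNAs held 28.1 to 29.4% of mature counts in the control ESC libraries and 4.61 to 5.43% in those of control iNs.

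In the imprinted domain on chromosome 12, 15 of 38 hairpins of the cluster that the deletion removes had a region. Their 17 regions had a median log2 fold of 3.31 and 7 were called over the untagged IP. Mir485 (5.16), Mir758 (5.04), Mir300 (4.79) and Mir541 (4.42) led, and Mir666 had the lowest fold, 0.10. Upstream of the cluster, from Meg3 to Mir379, 11 of 21 hairpins had a region, with a median fold of 2.08. Mir127 (5.25) and Mir434 (5.04) led there, and 3 regions of Mir770, inside Meg3, had folds from −0.33 to −0.12. None of the 210 regions was in the deposited list of regions matched to seeds of the cluster microRNAs. miR-300-3p was at 7769, 8079 and 9735 CPM in control iNs, and miR-541-5p at 6496, 5902 and 6548. The microRNAs on the arms of the regions of Mir485 and Mir758 were scarce, with 2.70, 5.95 and 6.86 CPM for miR-485-3p and 2.68, 1.67 and 1.22 for miR-758-3p.

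The neuronal list, with microRNAs such as miR-124, miR-9, miR-137 and the miR-30 family that are abundant in brain, had a region on 22 of 49 hairpins. The 24 regions had a median log2 fold of 2.55 over the untagged IP and 5.24 over the input, and 8 and 20 were called. Mir30b (4.52), Mir30d (4.38) and Mir30e (4.38) led. The region on Mir30e overlaps Mir30f, annotated on the other strand, so that both hairpins are counted. Mir137, a neuronal regulator, had 2.65. The regions on Mir9-2, Mir124a-1 and Mir125b-1 lay elsewhere. They ran over 1 end of the hairpin into the sequence beside it, and had folds of −1.27, −0.65 and −0.51. Mir9-2 had the lowest fold of all hairpin regions over the untagged IP, but 3.29 with a −log10 p of 13.9 over the input.

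The remaining lists had few regions. The let-7 and miR-98 hairpins, widespread microRNAs of differentiated cells, had none on 12 hairpins, although their microRNAs held 1.65 to 1.67% of mature counts in control iNs. The repeat family of miR-466, miR-467, miR-669 and miR-297 had regions on 3 of 77 hairpins. Mir467d led with 3.99, and the family held 0.169 to 0.200% of mature counts. In the miR-200 family, of epithelial cells, Mir429 had a region (1.99, with a −log10 p of only 0.43) and the other 4 hairpins did not. Of the 6 miR-34 and miR-449 hairpins, which are known as p53 targets or markers of ciliated cells, Mir34a (4.31) and Mir34c (1.58) had one. Their −log10 p was 4.68 and 0.20. Outside these lists, Mir298 on chromosome 2 had a fold of 5.35, and its miR-298-5p stood at 10715, 10990 and 10679 CPM in control iNs.

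The share of mature counts from hairpins with a region was 75.0, 74.2 and 74.2% in the 3 control iN libraries (mean 74.5 ± 0.448, SD, n = 3) and 69.3 to 69.8% in the 3 control ESC libraries (mean 69.6 ± 0.253, SD, n = 3). With only regions of a −log10 p of at least 10 over the untagged IP, the share in control iNs was 36.4%. Of the 50 most abundant microRNAs in control iNs 34 came from a hairpin with a region. The share of microRNAs with a region anywhere on a hairpin rose with abundance, from 18.5% of 411 under 10 CPM to 73.7% of 19 at 10000 CPM or more. A region over the listed mature microRNA itself was found for 16 of the 411 and 12 of the 19. At every level the share with a region anywhere on a hairpin was lower for microRNAs whose mature sequence is counted at 2 or 3 places in the genome. At 1000 CPM or more, 53 of 79 microRNAs with 1 copy (67.1%) and 5 of 16 with several copies (31.2%) had a region on any of their hairpins. Reads of the mature sequence alone match every such copy. How the authors placed them was not examined, and the part of this in the difference was not tested. Mir138-1 and Mir138-2, both with a region over miR-138-5p, had separate folds of 1.80 and 1.45.

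**Figure D3:**
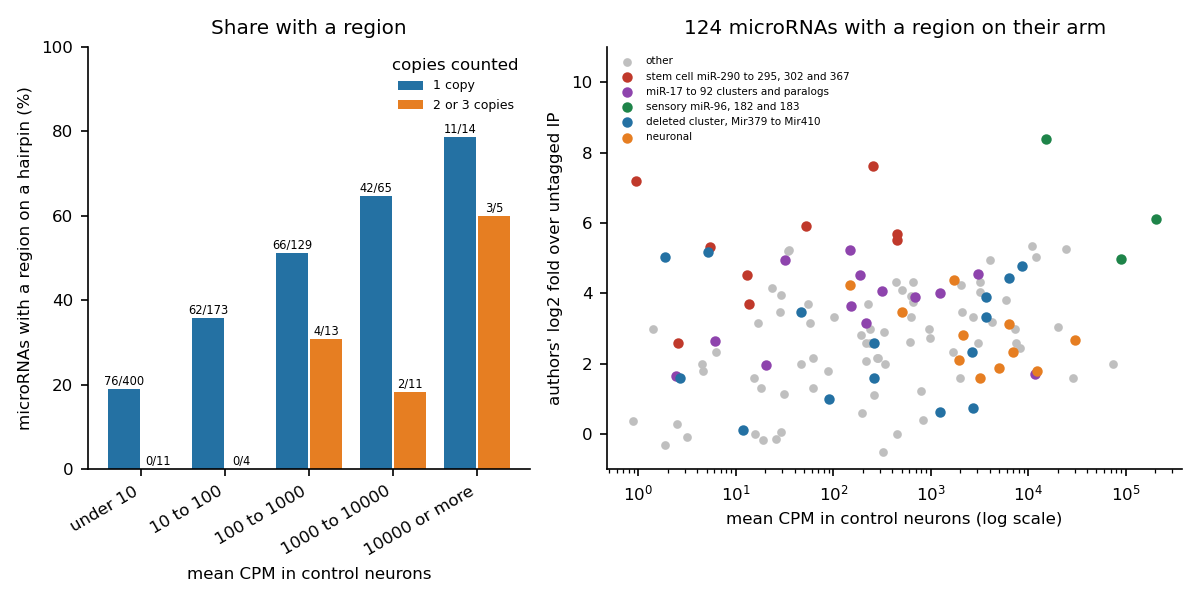
Left, percent of microRNAs with a region on a hairpin, by mean CPM in control iNs and by the number of genomic copies counted, with the numbers above each bar (bars start at 0). Right, the authors' log2 fold over the untagged IP against mean CPM in control iNs (log scale) for the microRNAs with a region on their own arm; most stem cell microRNAs lie high at low CPM.

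Among the abundant microRNAs with no region, several had 1 copy. miR-382-5p, of the deleted cluster, was the fourth most abundant of control iNs with 39550, 40975 and 40550 CPM, and the nearest region lay 1100 bases from Mir382. miR-191-5p (15464 ± 561 CPM, SD, n = 3), miR-379-5p (14075 ± 1022) and miR-323-3p (7847 ± 60.6) had none either, with the nearest region 397, 3271 and 108 bases away. miR-103-3p (29140 ± 395 CPM) and miR-19b-3p (15082 ± 1657 CPM) each have 2 copies. Both copies of Mir19b sit in clusters where other hairpins had regions, the nearest at 64 and 110 bases. Other abundant microRNAs had a region, with folds on either side of the median of hairpin regions. miR-16-5p, next to miR-183-5p in abundance with 82076, 72767 and 67899 CPM, had one on Mir16-2 with a log2 fold of 1.99 and a −log10 p of 0.96. miR-335-5p (28801 ± 2551 CPM) had 1.58 with a −log10 p of 0.84, and miR-27b-3p (20066 ± 1126 CPM) had 3.04, which was called. On Mir93, of the miR-106b to 25 cluster, the region lay over miR-93-3p (2.45 CPM) with a fold of 1.64, and not over miR-93-5p (16199 ± 1690 CPM).

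Among microRNAs with a region on their arm, abundance in the crosslinked kind of cell followed the fold only weakly. The Spearman correlation of the fold over the untagged IP was 0.37 with mean CPM in control ESCs (122 microRNAs) and 0.21 with mean CPM in control iNs (2 microRNAs more). The microRNAs share libraries and clusters, so both values are descriptions. Of the hairpins with a region and a named mature microRNA, 54 gave 1000 CPM or more in control iNs, 12 gave under 10 and 3 under 1. The 5 lowest were Mir675, Mir3063, Mir2137, Mir1291 and Mir219a-1. Mir675 gave 0.434 CPM in the mean, while its region had a log2 fold of 4.37 with a −log10 p of 55.2 over the untagged IP. A further 15 hairpins had a region and no named mature microRNA in the counts.

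The arm with the region was usually the abundant arm. In 109 hairpins with both arms listed, a region over an arm and counts in control iNs, 87 had the region over the more abundant arm alone, 18 over the less abundant alone and 4 over both. Where 1 arm had at least 10 times the CPM of the other, the same counts were 70, 7 and 2 of 79. The exceptions with large ratios included Mir340, within Rnf130, with a fold of 5.20 over miR-340-3p (34.3 CPM) and no region over miR-340-5p (3596 CPM). On Mir291a the region lay over miR-291a-3p (0.946 CPM in the mean) and not over miR-291a-5p (150 CPM). The counting split reads between mature microRNAs and a feature for the whole hairpin, which held 171 to 245 counts of Mir291a in the 3 control iN libraries, so that the level of a single arm is less sure than that of its hairpin.

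Some regions with low folds over the untagged IP were enriched over the input. On Mir1895 (−0.88), Mir6244 (−0.72) and Mir1905 (0.09 and −0.01) the region was on the strand opposite to the hairpin and had a fold over the input from 1.81 to 2.60. Mir8094 (−0.78) and Mir8101 (−0.70), on their own strand, had −log10 p of 16.8 and 2.34 over the input. Others were lower in the IP than in the input. These were 12 regions, on Mir1291, Mir677, Mir1839, Mir1843a, Mir1843b, Mir3068, Mir3069 and Mir5126, with folds over the input down to −2.44 and between −0.15 and 0.55 over the untagged IP. Folds below 0 over the input were found in 820 of all 22400 regions. Still others were near 0 in both comparisons, such as that on Mir125b-1, with −0.51 over the untagged IP and 0.32 over the input.

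To see how microRNAs with regions behaved as stem cells became neurons, control iNs were compared with control ESCs in the small RNA libraries (3 against 3, edgeR's quasi-likelihood test with Benjamini-Hochberg adjustment over all 523 microRNAs tested). The libraries held 744279 to 1532230 mature microRNA counts. All 8 neuron markers of the RNA libraries were higher, and all 7 stem cell markers lower, in every control iN library than in every control ESC library. Of the 4 glia markers measured Gfap was at 0, and the 4 summed to 4.58 to 6.97 CPM in iNs. Of the 6 fibroblast markers 5 were lower and 1, Postn, was higher in every control iN library than in every control ESC library. They summed to 29.5 to 31.2 CPM in iNs, nearly all of it Postn, and to 49.4 to 56.9 in ESCs, and Lum was at 0 in iNs.

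Of 226 tested microRNAs from hairpins with a region, 96 rose (42.5%), against 41.5% of all tested, and 97 fell (42.9%), against 44.2%. Within these totals the lists differed in direction. All 19 tested microRNAs of the stem cell list with a region fell, with a median log2 fold change of −5.27. The miR-17 to 92 list had 19 of 21 fall and none rise (median −2.93). In the neuronal list 23 of 29 rose and 2 fell (median 2.10). In the deleted cluster 13 of 26 rose and 8 fell. The median over all tested was −0.24. It moved to 0.25 with counts scaled to the total of all features, where 85 of the 192 changed microRNAs with a region fell and none of these lists turned its direction.

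Single microRNAs moved by far more than the spread between libraries. miR-137-3p was at 30759, 29638 and 30504 CPM in iNs and at 68.4, 53.3 and 57.7 in ESCs, a log2 fold change of 9.21 (SE 0.20, adjusted p = 2.0e-14, edgeR). miR-138-5p, a microRNA of dendrites, rose by 7.40 (SE 0.20, adjusted p = 1.7e-13, edgeR). The members of the sensory cluster rose by 2.52 (SE 0.16) for miR-182-5p, 2.96 (SE 0.15) for miR-183-5p and 1.03 (SE 0.18) for miR-96-5p, with edgeR adjusted p of 7.0e-10, 6.9e-11 and 6.0e-05. miR-302b-3p fell by 6.43 (SE 0.23, adjusted p = 1.9e-12, edgeR). miR-291a-3p fell by 8.20 (SE 0.62, adjusted p = 7.0e-09) and miR-293-3p by 7.37 (SE 0.51, adjusted p = 2.3e-09).

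Several of the extreme changes had 1 group at 0, where only a bound holds, set from a floor of 3 counts over the group. miR-5121, within the ribosomal protein gene Rpl13a, was at 340, 360 and 275 CPM in control iNs and at 0 in the 3 control ESC libraries, at least 301-fold higher. The 3 regions on its hairpin had folds from −0.58 to −0.28 over the untagged IP. miR-138-1-3p was at least 56.4-fold higher and miR-216a-3p at least 18.6-fold higher in iNs. In the other direction miR-92a-1-5p was at least 634-fold, miR-183-3p at least 59.0-fold and miR-182-3p at least 38.1-fold lower in iNs. For the last 2 the other arm rose, and the whole-hairpin feature of Mir183 held 55717, 47842 and 52289 counts in control iNs, so that reads of a minor arm may have been counted elsewhere, which was not tested. Summed over arms and whole hairpin, an alternative added after seeing the data, 69 of 155 hairpins with a region rose and 67 fell.

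**Figure D4:**
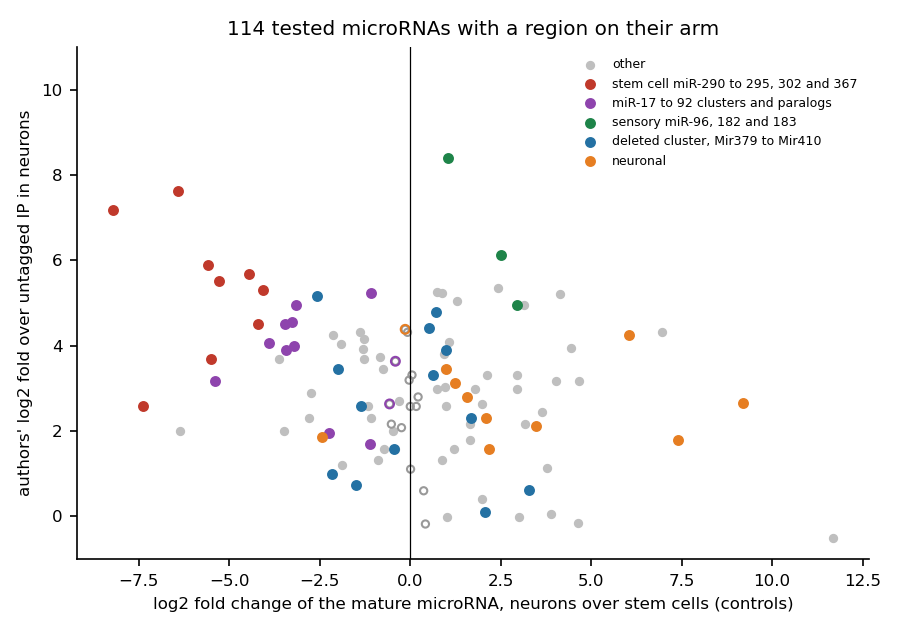
Authors' log2 fold over the untagged IP in iNs (vertical) against the log2 fold change of the mature microRNA from control ESCs to control iNs (horizontal) for the 114 tested microRNAs with a region on their own arm. Filled points passed an adjusted p of 0.05 (14 open points did not); most stem cell microRNAs stand at the upper left, with high folds in iNs and lower levels than in ESCs, and the sensory microRNAs stand at the upper right.

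Loss of the cluster was followed in the same microRNAs by comparing deletion with control iNs (3 against 3, edgeR, 433 microRNAs tested). Of 195 tested microRNAs from hairpins with a region 30 rose (15.4%), against 16.9% of all tested, and 51 fell (26.2%), against 24.2%. With counts scaled to the total of all features, 14 rose and 89 fell, as that scaling moved the median of all microRNAs from −0.03 to −0.29. Without control iN replicate A the rises numbered 18, and without replicate B 17. All 12 libraries in 1 fit gave 14 rises and 49 falls.

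All 23 tested cluster microRNAs from hairpins with a region fell. miR-300-3p, at 7769, 8079 and 9735 CPM in controls, was at 5.66, 4.07 and 6.26 after the deletion, a log2 fold change of −10.70 (SE 0.18, adjusted p = 1.4e-28, edgeR). miR-541-5p fell by 8.91 (SE 0.16, adjusted p = 2.2e-28, edgeR). Their median was −8.98, or −8.40 with 12 microRNAs that were at 0 in the deletion set at their bound. miR-3072-3p, whose hairpin lies within Mirg and beyond Mir410, had 67.8, 58.8 and 60.1 CPM in the controls and none in the 3 deletion libraries, at least 58.8-fold lower. The region on Mir3072 had a log2 fold of 1.31 with a −log10 p of 0.34 over the untagged IP.

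Outside the cluster, 30 of 172 rose (17.4%, against 16.9% of all tested) and 28 fell (16.3%, against 24.2%), with a median of 0.04. The shares over all tested include the cluster, and those over all microRNAs outside it were not computed. The 28 falls include miR-3072-3p. The balance of rises and falls depends on the scaling, as given above for all microRNAs from hairpins with a region. miR-216a-5p had the largest rise, from 376, 358 and 569 CPM to 1234, 1381 and 1344, with a log2 fold change of 1.52 (SE 0.13, adjusted p = 3.4e-11, edgeR). miR-216a-3p (1.51, SE 0.27) and miR-138-1-3p (1.09, SE 0.18) rose as well. miR-673-3p (0.92, SE 0.37) and miR-3068-3p (0.78, SE 0.25) passed here with adjusted p of 0.045 and 0.013 but not under DESeq2's Wald test, where their adjusted p was 0.22 and 0.053. Among the falls, miR-429-3p, of the miR-200 family, went from a mean of 337 CPM (SD 64.5) to 112 (SD 15.1, n = 3 in both), with no overlap and a log2 fold change of −1.67 (SE 0.16, adjusted p = 3.6e-10, edgeR). miR-106a-5p fell by 1.48 (SE 0.17), miR-302d-3p by 1.36 (SE 0.14) and miR-34a-5p by 1.25 (SE 0.09).

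The stem cell list moved together in this comparison. Of its 10 tested microRNAs with a region 9 fell and none rose, with a median of −1.07, and miR-302b-3p went from 285, 281 and 195 CPM to 115, 135 and 131. In the RNA libraries the summed stem cell markers reached 8.84 to 9.38 CPM in the controls and 5.75 to 6.57 after the deletion. The largest part was Esrrb, at 4.90 to 6.03 CPM in the controls and 2.42 to 3.31 after the deletion. Zfp42 and Pou5f1 were also lower in every deletion library than in every control library, and Klf4 was higher. Nanog, Sox2 and Tdgf1 overlapped, and the part of these markers in the fall of the list was not tested. In the neuronal list 11 of 29 rose and 1 fell, but with counts scaled to the total of all features 6 rose and 4 fell. The sensory microRNAs did not pass the test, with log2 fold changes of 0.22 (SE 0.11) for miR-182-5p, 0.16 (SE 0.11) for miR-183-5p and −0.20 (SE 0.09) for miR-96-5p, and adjusted p of 0.11, 0.26 and 0.086 (edgeR).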

How the data were processed

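The authors' deposited region lists gave, for each region, a log2 fold and a −log10 p of the HA-Ago2 IP over the untagged IP or the input. The column meanings were checked against another deposited table with headers. The peak caller and the treatment of the replicates are not given in the sources used here. Of 22432 list entries, repeats were removed. Per the file headers, each small RNA file held expected counts and posterior mean counts from RSEM per transcript, hairpin and mature microRNA. Tools listed in the submitters' processing notes include RSEM 1.2.30, STAR 2.4.1d and cutadapt 1.4.2, with build mm10. The authors' deposited tables of mean normalised counts (a signal averaged over libraries) named 826 of 1907 mature accessions, by equal values within 1e-08, with 99.992% of mature counts.

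Regions were overlapped with RefSeq microRNA genes (1 bp, either strand) in Python 3.11.15. Copies of a mature sequence were summed, and CPM is per 1000000 mature counts. Expected counts were rounded and compared by edgeR 4.0.16 (R 4.3.3) after TMM scaling; microRNAs passed filterByExpr at min.count 10, and adjusted p below 0.05 was called. The test was checked on simulated data. DESeq2 1.42.0 was an alternative. RNA markers used expected counts per gene, deposited by the authors, as CPM. Members and lists were chosen with earlier results of these data known. Named microRNAs were chosen by rank: the highest and lowest folds, the most abundant in control iNs with and without a region, the least abundant with one, the widest or repeated regions, opposite-strand regions, up to 4 per list, and the 5 largest rises and falls per comparison.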

Additional observations from a re-analysis of the deposited data

How the results depend on the processing

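The number of hairpin regions (210), of hairpins with one (168) and of hairpin regions found in both comparisons (210) changed by less than 1.5 times on the same strand only (192, 149 and 192), with at least 50% of the region inside the hairpin (199, 161 and 199) and among the 50% of all regions with the higher folds (190 regions). With a −log10 p of at least 10 they fell to 24, 21 and 24. Both comparisons share 1 list, so the third count repeats the first under every choice. The median log2 fold of 2.80 became 2.76, 2.99, 3.08 and 4.87 under the same 4 choices, in the order strand, inside, higher folds and p, and 2.58 with overlapping regions merged (added after seeing the data). The choices by fold and by p select on the fold itself or on its p, so the higher medians under them were fixed in advance. The share of mature counts (74.5%) became 73.3, 72.6, 72.6 and 36.4%, and 69.5% where only copies whose own hairpin held a region counted; without 1 control iN replicate it was 74.2 to 74.6%. In neurons against stem cells, 193 microRNAs with a region changed, 188 to 199 without 1 replicate and 192 with the replicate block. In deletion against control, 81 changed, 67 to 88 without 1 replicate, 87 with the replicate block, 63 with all 12 libraries in 1 fit and more (14 rose, 89 fell) with scaling to all features. Libraries of the same letter did not deviate together (r from −0.051 to 0.051 across microRNAs), so the letters were not taken to pair them. Of the named microRNAs, none reversed under any alternative run; miR-16-5p lost its fall in neurons under DESeq2's size factors in edgeR (adjusted p = 0.067), the DESeq2 Wald test (0.077), scaling to all features and without control iN replicate B or C. miR-673-3p and miR-3068-3p, named above, were the others that lost their call. The crosslinking lists allow no replicate check, and depth limits the statements on microRNAs under 10 CPM.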
